A study of Drosophila melanogaster with 48 samples.

Results

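The expression of 9 genes of cell division was followed through the RNA-seq of a Drosophila exosome knockdown series: pav (FBgn0011692), tum (FBgn0086356), pbl (FBgn0003041), scra (FBgn0261385), feo (FBgn0030241), Incenp (FBgn0260991), polo (FBgn0003124), aurA (FBgn0000147) and aurB (FBgn0024227). They were taken by their FlyBase gene ID from the 12 deposited knockdown tables, and all 9 were present in each, among 15065 gene IDs. S2 and S3 cells, established lines of cultured Drosophila cells, received 2 ug of dsRNA against GFP (the control), Csl4, Rrp40 or Rrp6 by nucleofection, and RNA was collected 5 days later. Poly(A)+ RNA and RNA depleted of ribosomal RNA (RiboMinus) were sequenced separately. No other genotype or treatment separated the groups, and the GFP cells went through the same dsRNA transfection.

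Rrp6 is the nuclear 3′ to 5′ exonuclease that joins the RNA exosome, and Rrp40 and Csl4 belong to the cap of its core. The 9 genes act from the formation of the mitotic spindle to the cut that separates the daughter cells. The kinesin pav and the RacGAP protein tum form centralspindlin, which gathers at the spindle midzone and recruits the guanine nucleotide exchange factor pbl to the cell equator, where scra (anillin) ties actin, myosin and septins into the contractile ring. The protein feo is the fly PRC1, which bundles the midzone microtubules. The kinase aurB and its scaffold Incenp form the core of the chromosomal passenger complex, polo is the founding Polo-like kinase, and aurA acts at centrosomes and spindle poles. Transcripts of many such genes are at their highest in dividing cells.

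Levels are CPM, the reads of a gene scaled to a common library size (TMM), from the reads of each library worked back out of the deposited group means. S2 poly(A) RNA had 2 GFP, 2 Csl4, 1 Rrp40 and 2 Rrp6 libraries, S3 poly(A) RNA had 3 GFP libraries and 2 of each knockdown, and S3 RiboMinus RNA had 2 of each, while S2 RiboMinus RNA had 1 per group. The libraries of a group differed widely in depth, with 532934 to 69426568 reads on genes in poly(A) RNA, 108782 to 9212060 in the S3 RiboMinus set and 67743 to 157282 in S2 RiboMinus RNA. They are called deeper and shallower below, since the means do not say which knockdown library is which replicate. The sample titles number the libraries of a group as biological replicates and do not say whether these were separate cultures. P-values measure only the spread between these libraries. The fit pools this spread over genes, wholly so in the S3 RiboMinus set. The mean level of the targeted gene was higher, not lower, in the libraries labelled with its knockdown in all 12 combinations of target, line and RNA fraction, and in 11 of them every such library was above every GFP library. The exception was Csl4 in S2 poly(A) RNA, at 216 and 45.0 with Csl4 dsRNA against 78.5 and 93.9 with GFP, which was not called (log2 change 0.69, adjusted p = 0.455). These reads may include the transfected dsRNA, so RNA reads give no check of the knockdowns; the labels report Western blots. Of 8 hemocyte markers, NimC1 was the lowest in poly(A) RNA of GFP cells, at 0.57 or less. Pxn stood at 266 to 522 in S2 and 2210 to 2630 in S3 cells, while Col4a1 stood at 1150 to 1650 and 39.6 to 79.4. The sums of these markers thus rest on different genes in each line. The summed hemocyte markers were 2940 to 3280 in the Rrp6 libraries against 2660 to 2840 with GFP in the S2 poly(A) set, 1490 to 2310 against 2900 to 3520 in the S3 poly(A) set, and 2300 to 3780 against 2200 to 5540 in the S3 RiboMinus set. The 4 neuron markers in the tables summed to 179 to 316 against 42.1 to 99.6, 27.9 to 59.4 against 13.7 to 25.9, and 99.2 to 140 against 39.1 to 77.2 in the same order, and the 3 germ line markers to 9.39 to 9.95 against 13.5 to 13.9, 11.5 to 12.7 against 4.23 to 5.18, and 5.1 to 9.33 against 2.95 to 7.02. Muscle and epithelium markers overlapped between Rrp6 and GFP libraries in all 3 sets, and the part of these shifts in the results was not tested. In GFP poly(A) libraries, most of the neuron sum was brp in S2 cells (27.9 to 83.4) and elav in S3 cells (12.4 to 24.6). There nSyb and Syt1 stood at 3.48 or less, and each germ line marker at 9.27 or less. Values of single markers with Rrp6 dsRNA are not given here.

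In cells given Rrp6 dsRNA, 6 of the 9 genes fell in the S2 poly(A) set, 6 in the S3 poly(A) set and 5 in the S3 RiboMinus set, and none rose. The falls ran from 2.19-fold to 4.82-fold in the S2 poly(A) set, from 3.05-fold to 6.86-fold in the S3 poly(A) set and from 2.04-fold to 4.36-fold in the S3 RiboMinus set. Pav, tum, Incenp, polo and aurB fell in all 3 sets, aurA in both poly(A) sets, and pbl, scra and feo in none. Rrp6 dsRNA moved much of the transcriptome, and the background for these counts is the share of all tested genes called lower by the same edgeR test at an adjusted p of at most 0.05: 16.9% of 7905 genes in the S2 poly(A) set, 16.4% of 7923 in the S3 poly(A) set and 7.35% of 8286 in the S3 RiboMinus set. In the same order 20.2%, 19.7% and 12.4% of genes were called higher. The median log2 change of the 9 genes was -1.46, -1.96 and -1.07, beside -0.05, 0.01 and 0.07 over all genes tested. In RNA from whole cultures, fewer cells at the stage that holds these transcripts and less of the transcript in each cell cannot be told apart.

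These tests treat the depth class of a library as a block in place of the replicate number, which the means do not give for each library. The classes do not match replicate numbers throughout: per the file headers the S3 poly(A) libraries are replicates 1 and 3 for Csl4 and Rrp6 and 2 and 3 for Rrp40, and GFP replicates 1 and 2 both fell in the deeper class. Without GFP replicate 2 the same number of genes, 6, was called with Rrp6 dsRNA in that set. Without the block, all 6 genes were still called in the S3 poly(A) set (adjusted p 0.00493 to 0.0266, edgeR), but 0 in the S2 poly(A) set (adjusted p 0.0951 to 0.231, with all 6 at an unadjusted p below 0.05) and 0 in the S3 RiboMinus set (0.27 to 0.777, with 4 of the 5 below 0.05). In those fits without the block 0.0% of all tested genes were called lower in either of the last 2 sets, and 5.2% in the S3 poly(A) set, and 0.114%, 0.181% and 8.38% were called higher in S2 poly(A), S3 RiboMinus and S3 poly(A) RNA. The log2 changes of the 6 and 5 genes without the block ran from -2.18 to -1.04 and from -2.00 to -0.76. Counts at an unadjusted p below 0.05, here and below, stand without the share of all tested genes. They are not read as a result about these genes.

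**Figure D1:**
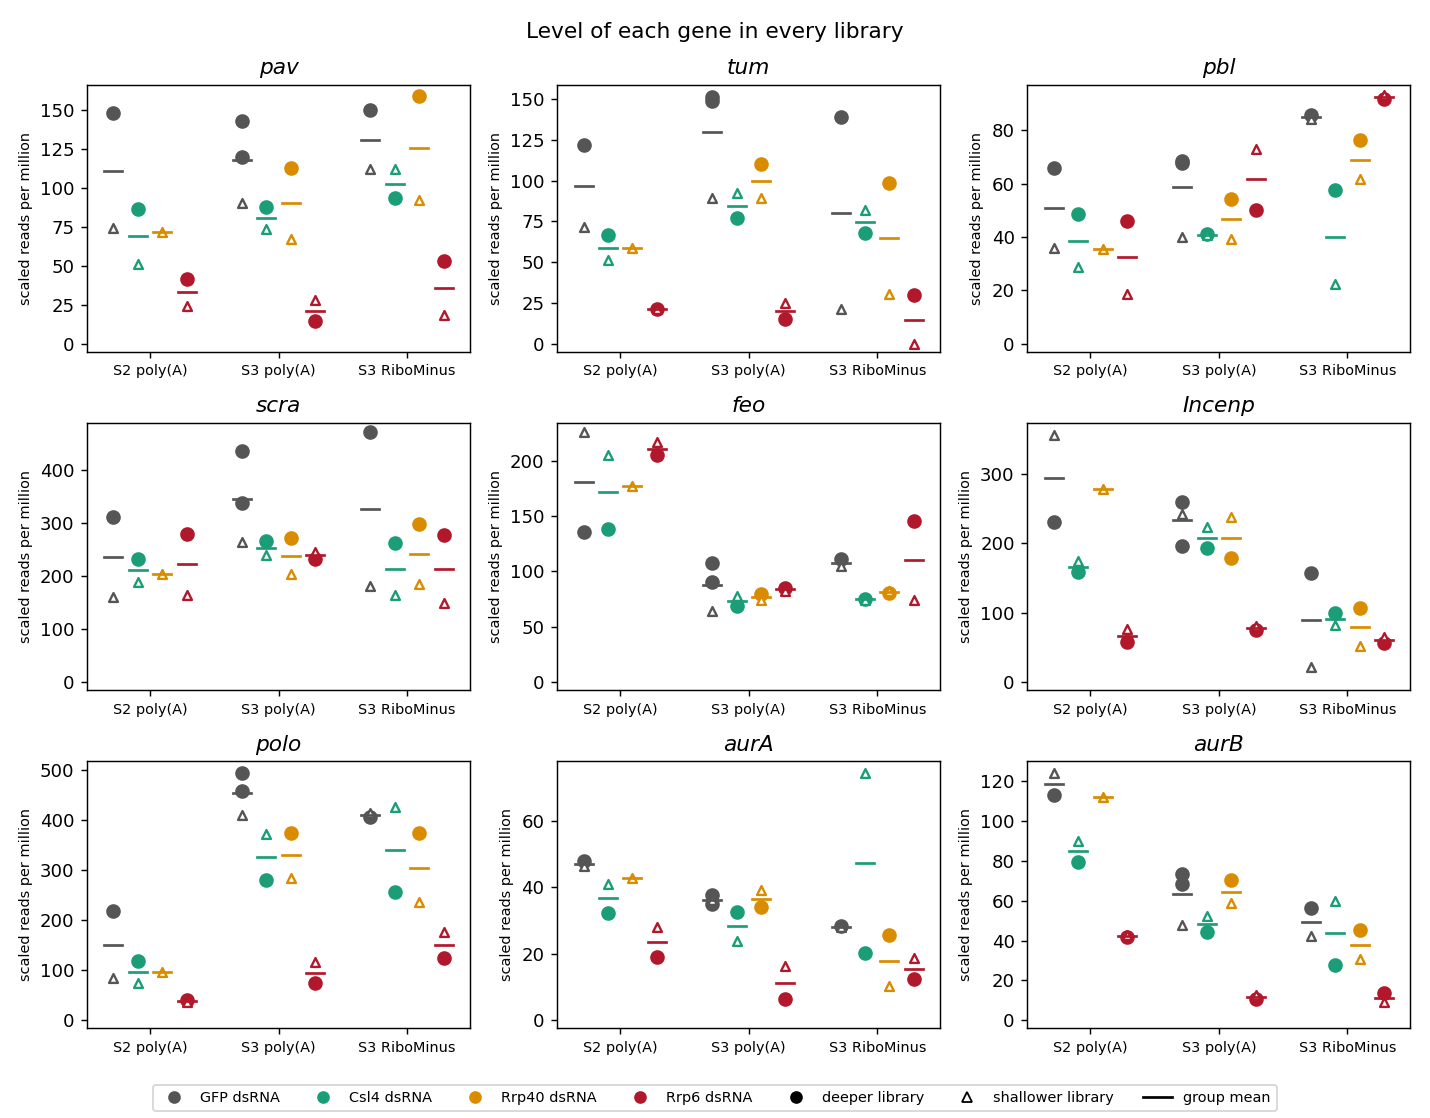
CPM of each of the 9 genes in every library of the 3 replicated sets, with filled circles for deeper and open triangles for shallower libraries and a bar at each group mean. In the S3 poly(A) set the Rrp6 libraries of tum sit at 15.5 and 25.0, below the 3 GFP libraries at 89.3 to 151, while those of feo (82.7 and 84.9) lie among the GFP libraries (64.7 to 108).

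Both parts of centralspindlin fell with Rrp6 dsRNA in each set. In the S2 poly(A) set pav stood at 148 and 74.2 in the GFP libraries (replicates 1 and 3) and at 41.9 and 24.1 in the deeper and shallower Rrp6 libraries. Both Rrp6 libraries were below both GFP libraries, and pav was 3.37-fold lower (log2 change -1.75 ± 0.25 SE, adjusted p = 1.1e-05). In the same libraries tum went from 122 and 71.8 to 21.6 and 21.5, which is 4.82-fold lower (log2 change -2.27 ± 0.27, adjusted p = 1.2e-06).

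Among S3 poly(A) libraries, the fall of the pair was of the same order. Pav stood at 143, 120 and 90.6 in GFP replicates 1, 2 and 3 and at 14.6 and 27.9 in the Rrp6 libraries (log2 change -2.57 ± 0.38, adjusted p = 0.00106). Tum stood at 149, 151 and 89.3 against 15.5 and 25.0, or 6.86-fold lower (log2 change -2.78 ± 0.35, adjusted p = 5.8e-04), which was the largest fold among the 9 genes in any set. For both genes every Rrp6 library was lower than every GFP library. In the S3 RiboMinus set pav went from 150 and 112 to 53.5 and 18.7 (log2 change -1.59 ± 0.36, adjusted p = 1.8e-04) and tum from 139 and 21.1 to 29.8 and 0.0 (log2 change -2.12 ± 0.38, adjusted p = 1.2e-06). The shallower libraries hold few reads there: 3 tum reads with GFP and 0 with Rrp6 dsRNA, so the tum value rests on the deeper pair, with 897 and 210 reads, and its Rrp6 and GFP libraries overlap. Without the deeper GFP library neither gene was called in this set (pav -1.58, adjusted p = 0.141; tum -0.35, adjusted p = 0.898), and without the deeper Rrp6 library tum was not called (adjusted p = 0.0836).

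The chromosomal passenger pair, aurB and Incenp, fell with them. Among S2 poly(A) libraries aurB stood at 113 and 124 with GFP and at 41.9 and 42.9 with Rrp6 dsRNA, 2.76-fold lower (log2 change -1.46 ± 0.23, adjusted p = 4.8e-05). Incenp went from 231 and 356 to 57.4 and 76.4, 4.33-fold lower (log2 change -2.11 ± 0.22, adjusted p = 3.3e-07). The gap between the groups is wider than the spread within them for both genes.

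For S3 poly(A) RNA, aurB went from 73.5, 68.4 and 47.9 to 10.9 and 12.5, 5.61-fold lower (log2 change -2.49 ± 0.28, adjusted p = 3.7e-04). Incenp went from 260, 196 and 242 to 74.8 and 80.8, 3.05-fold lower (log2 change -1.61 ± 0.23, adjusted p = 0.00104). Both groups of libraries stand clear of each other. Among S3 RiboMinus libraries, aurB stood at 56.1 and 42.1 against 13.5 and 9.33 (log2 change -2.00 ± 0.46, adjusted p = 2.6e-04), with only 6 and 1 reads in the shallower pair. Its call held in the 4 fits that left out a shallower library, and in the 4 that left out a deeper one aurB did not pass the filter on low counts, so the call could not be checked there. Incenp is the least secure call: it stood at 157 and 21.1 with GFP and at 57.0 and 65.3 with Rrp6 dsRNA (log2 change -1.03 ± 0.36, adjusted p = 0.0285), so it was lower in the deeper pair and higher in the shallower one, which had 3 and 7 reads. Its log2 change turned to 1.13 (adjusted p = 0.47) without the deeper GFP library and to 0.20 (adjusted p = 0.914) without the deeper Rrp6 library, and the call was also lost without the shallower Csl4 library (adjusted p = 0.091) or the deeper Rrp40 library (adjusted p = 0.0836). DESeq2 gave Incenp -0.60 (adjusted p = 0.672) and tum -2.07 (adjusted p = 0.0735) in this set, and called pav, polo and aurB.

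Of the other kinases, polo fell in all 3 sets. It stood at 218 and 84.6 against 41.4 and 37.5 in the S2 poly(A) set, 3.93-fold lower (log2 change -1.97 ± 0.28, adjusted p = 1.1e-05). Among S3 poly(A) libraries, it went from 494, 457 and 409 to 74.2 and 116, 4.92-fold lower (log2 change -2.30 ± 0.30, adjusted p = 6.2e-04). The highest Rrp6 library lies far below the lowest GFP library in that set. For S3 RiboMinus RNA, polo went from 405 and 414 to 125 and 177, 2.91-fold lower (log2 change -1.54 ± 0.30, adjusted p = 1.1e-05), and there it was not called without the deeper GFP library (adjusted p = 0.0677) or the deeper Rrp6 library (adjusted p = 0.0906).

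The level of aurA is given with the caution that it overlaps another gene, CG12213, in the Release 6 annotation, the only one of the 9 that does. The sources used here do not give the strand setting of the counting. In the S2 poly(A) set aurA stood at 48.0 and 46.3 with GFP and 19.0 and 28.2 with Rrp6 dsRNA (log2 change -1.13 ± 0.28, adjusted p = 0.00283). For S3 poly(A) RNA, it stood at 34.9, 37.6 and 36.2 against 6.42 and 16.3 (log2 change -1.96 ± 0.39, adjusted p = 0.00446), so the GFP libraries were close together and both Rrp6 libraries lower. In the S3 RiboMinus set aurA went from 28.3 and 28.1 to 12.5 and 18.7 and did not pass the test (log2 change -1.07 ± 0.51, adjusted p = 0.131), except without the shallower GFP library (adjusted p = 0.0458). The S2 call was lost without GFP replicate 1 (log2 change -0.79, adjusted p = 0.208) or the deeper Rrp6 library (-0.80, adjusted p = 0.21), and the S3 poly(A) call without the deeper Rrp6 library (-1.08, adjusted p = 0.0996).

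**Figure D2:**
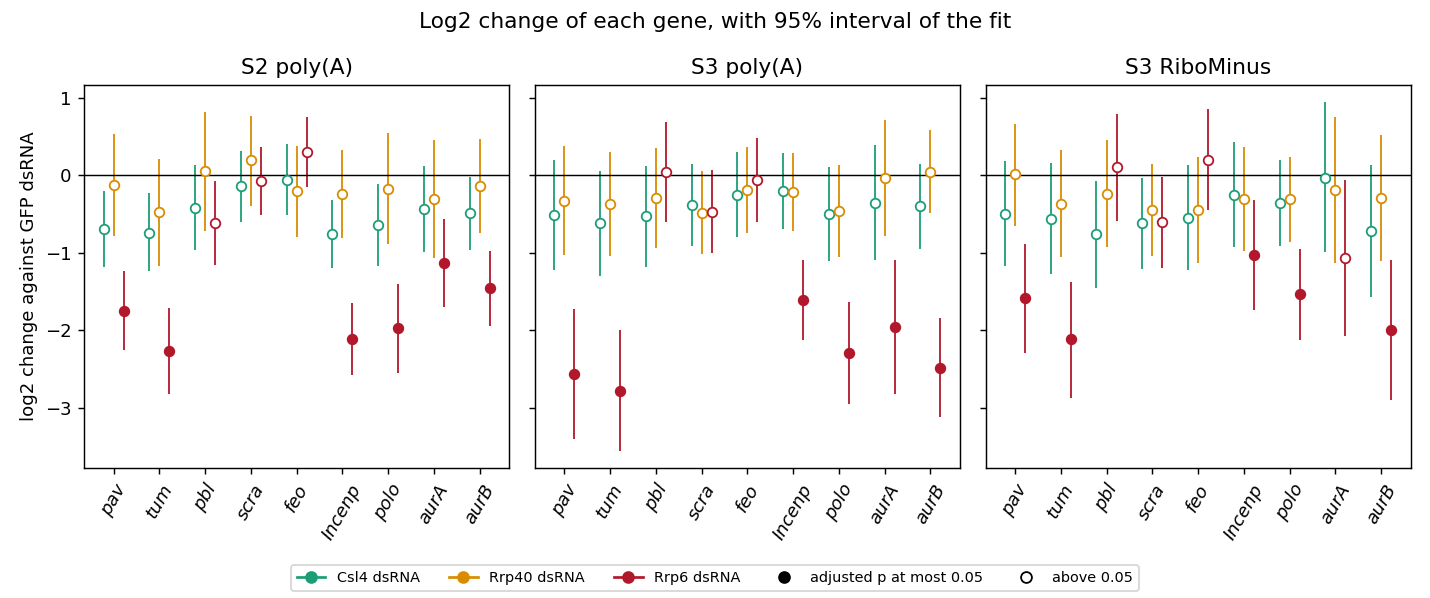
Fitted log2 change of each gene against GFP dsRNA by knockdown in the 3 replicated sets, with the 95% interval of the fit; filled points have an adjusted p of at most 0.05. Only Rrp6 points are filled, 6, 6 and 5 of them, and the intervals of pbl, scra and feo for Rrp6 lie between -1.20 and 0.86.

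The remaining 3 genes, the exchange factor pbl, the ring scaffold scra and the midzone bundler feo, were not called with Rrp6 dsRNA in any set. In the S3 poly(A) set pbl stood at 68.5, 67.6 and 40.1 with GFP and at 50.3 and 73.1 with Rrp6 dsRNA, within the same range, and its log2 change was 0.04 with a 95% interval of -0.60 to 0.69. Among S2 poly(A) libraries it stood at 65.8 and 35.9 against 46.1 and 18.8, with a log2 change of -0.62 (interval -1.16 to -0.08, adjusted p = 0.0659). That value passed the threshold in the S2 fit without a filter on low counts (adjusted p = 0.0495) and without the shallower Csl4 library (adjusted p = 0.0499). Among S3 RiboMinus libraries, pbl was at 85.9 and 84.2 against 91.7 and 93.3, with a log2 change of 0.10 (interval -0.59 to 0.79).

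Scra stood at 312 and 161 against 280 and 165 in the S2 poly(A) set, with a log2 change of -0.08 (interval -0.52 to 0.37). Among S3 poly(A) libraries, it was at 435, 337 and 265 against 233 and 246, every Rrp6 library below every GFP library, but the log2 change of -0.47 did not pass the test (± 0.24 SE, adjusted p = 0.156); without the shallower Rrp6 library it was -0.92 (adjusted p = 0.0157). For S3 RiboMinus RNA, it was at 472 and 182 against 278 and 149 (log2 change -0.61, interval -1.20 to -0.02, adjusted p = 0.141), and -0.94 without the shallower GFP library (adjusted p = 0.0265). Feo stood at 136 and 226 against 205 and 217 in the S2 poly(A) set (log2 change 0.30, interval -0.15 to 0.75), and its log2 change was -0.06 (interval -0.60 to 0.48) in the S3 poly(A) set and 0.20 (interval -0.45 to 0.86) in the S3 RiboMinus set. In each of the 3 sets the intervals of all 3 genes exclude a fall as large as the estimate for tum. They do not all exclude the smaller called falls. The pbl interval in the S2 poly(A) set includes the estimate for aurA there, and the scra interval in the S3 RiboMinus set includes that for Incenp.

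The libraries were also compared within a depth class, deeper with deeper and shallower with shallower. Within both classes, 7 genes were lower with Rrp6 dsRNA in the S2 poly(A) set, 7 in the S3 poly(A) set and 5 in the S3 RiboMinus set, beside 39.2%, 33.8% and 23.7% of all tested genes. In each poly(A) set they were the called genes, with pbl in S2 and scra in S3, which were not called. In the S3 RiboMinus set they were pav, polo, aurB, scra and aurA, of which scra and aurA were not called. Tum and Incenp, called in that set, were not among them. With Csl4 dsRNA the counts were 7, 5 and 4 (31.0%, 25.8% and 22.0% of genes), and with Rrp40 dsRNA 5 in each S3 set (29.0% and 18.6%). In the deeper S3 poly(A) pair pav was 9.84-fold and tum 9.67-fold lower, and in the shallower pair 3.25-fold and 3.57-fold lower. In the S2 poly(A) set Incenp was 4.03-fold and 4.65-fold lower in the deeper and shallower pairs, while polo was 5.27-fold lower in the deeper and 2.25-fold lower in the shallower pair. Pbl and feo changed sign between the pairs in the S3 poly(A) set, at -0.44 and 0.86 for pbl and -0.35 and 0.35 for feo on the log2 scale. Every Rrp6 library was below every GFP library for 6 of the 9 genes in the S2 poly(A) set, 7 in the S3 poly(A) set and 4 in the S3 RiboMinus set, beside 23.6%, 23.1% and 19.4% of all tested genes. Pbl alone was above every GFP library, in the S3 RiboMinus set, as were 20.6% of tested genes there.

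**Figure D3:**
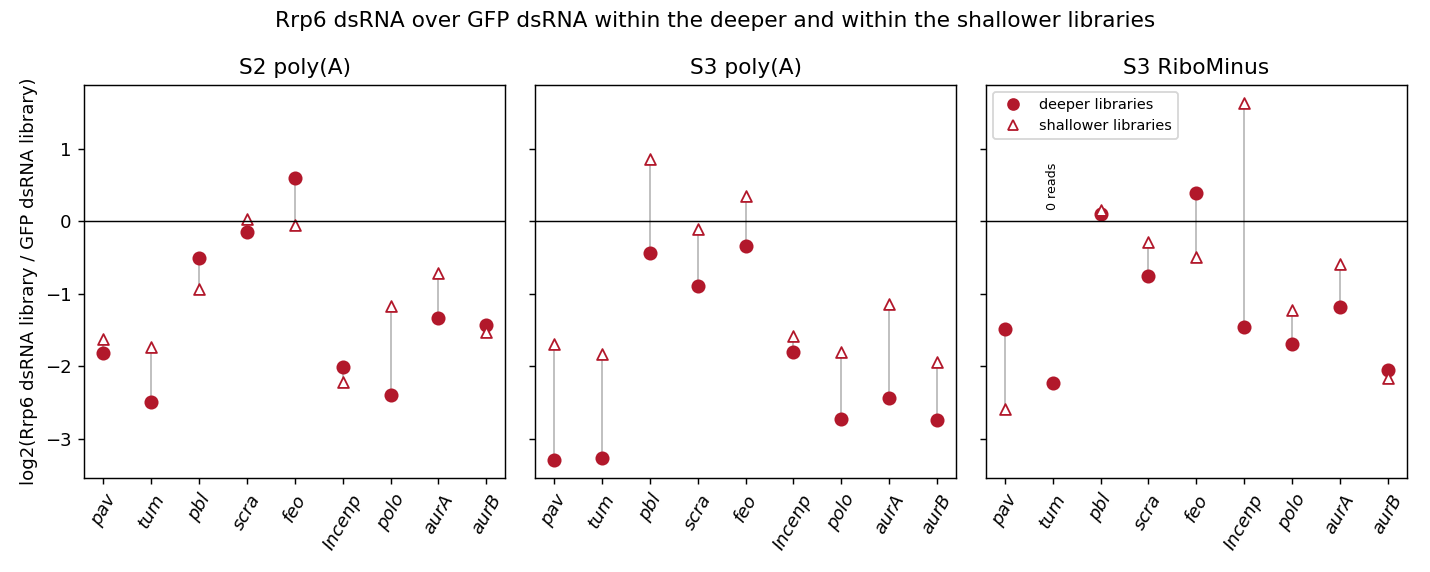
Log2 ratio of the Rrp6 to the GFP library for each gene within the deeper (filled circles) and within the shallower libraries (open triangles) of each set; in the S3 poly(A) set the deeper pair uses GFP replicate 1. Pav, tum, polo, aurA and aurB lie below 0 in both pairs of every set, except that tum had 0 Rrp6 reads in the shallower S3 RiboMinus pair and has no ratio there, and Incenp is at -1.46 and 1.63 in the 2 pairs of that set.

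With Csl4 dsRNA 0 of the 9 genes were called in any set by edgeR or by DESeq2, and with Rrp40 dsRNA likewise 0. These comparisons share their GFP libraries with the Rrp6 comparison. Few genes of any kind were called lower there by edgeR: 0.139%, 0.0126% and 0.471% of tested genes with Csl4 dsRNA in the 3 sets (S2 then S3 poly(A), then RiboMinus), and 0.0%, 0.0% and 0.0241% with Rrp40 dsRNA. Called higher were 1.82%, 0.227% and 1.69% with Csl4 and 0.101%, 0.0% and 0.193% with Rrp40 dsRNA. All 9 estimates were below 0 with Csl4 dsRNA in each set, with medians of -0.49, -0.40 and -0.55, beside -0.01, -0.00 and 0.01 over all genes. An unadjusted p below 0.05 was reached with Csl4 dsRNA by 5 genes in the S2 poly(A) set, by 0 in the S3 poly(A) set and by 2 in the S3 RiboMinus set, and with Rrp40 dsRNA by 0 in each. The shares above are for adjusted p and are no background for these unadjusted counts.

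The lowest adjusted p among them was that of Incenp in the S2 poly(A) set. Incenp stood at 158 and 174 with Csl4 dsRNA against 231 and 356 with GFP (log2 change -0.76 ± 0.21, interval -1.20 to -0.32, adjusted p = 0.0689). It passed with RLE scaling (adjusted p = 0.0477), without a filter (adjusted p = 0.0238) and without the shallower Rrp6 library (adjusted p = 0.0148). Tum in the same comparison was at 66.7 and 51.2 against 122 and 71.8 (log2 change -0.74 ± 0.24, adjusted p = 0.147) and was called without GFP replicate 3 or the shallower Rrp6 library (adjusted p = 0.0408 at the lowest); polo, at 118 and 73.7 against 218 and 84.6 (log2 change -0.64), was called without GFP replicate 3 (adjusted p = 0.02). Every Csl4 library was below every GFP library for 4, 3 and 3 of the 9 genes in the 3 sets, beside 12.4%, 9.59% and 13.7% of all tested genes. With Rrp40 dsRNA the median log2 changes were -0.18, -0.29 and -0.31, and the single S2 library stood at 71.7 for pav, 58.7 for tum, 95.6 for polo and 278 for Incenp. Every Rrp40 library was below every GFP library for 1 gene in the S3 poly(A) set and 4 in the S3 RiboMinus set (pbl, feo, polo and aurA), beside 8.12% and 10.5% of all tested genes. The one was polo, at 374 and 285 with Rrp40 dsRNA, with a log2 change of -0.46 (interval -1.06 to 0.13).

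Rrp6 was then set against the other knockdowns directly, which leaves the GFP libraries out of the contrast. Among S2 poly(A) libraries pav, tum, Incenp, polo and aurB were lower with Rrp6 than with Csl4 dsRNA and than with Rrp40 dsRNA, 5 of 9 each, where 5.48% and 4.62% of all tested genes were lower. In the S3 poly(A) set the same 5 and aurA were lower in both, where 7.27% and 12.4% of genes were. In the S3 RiboMinus set tum and polo were lower than with Csl4 dsRNA (0.422% of genes) and pav, tum, polo and aurB lower than with Rrp40 dsRNA (2.81% of genes). None of the 9 was higher, where 7.94%, 7.31% and 2.04% of genes were higher than with Csl4 dsRNA and 6.6%, 13.7% and 7.59% higher than with Rrp40 dsRNA. Tum, for example, was 2.89-fold lower with Rrp6 than with Csl4 dsRNA in the S2 poly(A) set, 4.47-fold in the S3 poly(A) set and 2.96-fold in the S3 RiboMinus set. Csl4 and Rrp40 differed from each other in 0 of 9 genes in each set by edgeR, with 0 at an unadjusted p below 0.05, and in 0 by DESeq2; their background was 0.0127%, 0.0% and 0.0362% of genes called lower and 0.0127%, 0.0% and 0.0483% called higher.

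These direct contrasts depend on single libraries and on the block. In the S3 RiboMinus fits without a deeper library aurB did not pass the filter on low counts, so there it was not tested. Without the block 0 genes remained called against Csl4 dsRNA in all 3 sets, and against Rrp40 dsRNA the counts were 0, 2 and 0 (S2 then S3 poly(A), then RiboMinus). Of all tested genes, 0.0127%, 0.353% and 0.0% were called lower against Rrp40 dsRNA without the block. Against Csl4 dsRNA, 0 genes were called in the S2 poly(A) set without the deeper Csl4 or the deeper Rrp6 library; in the S3 poly(A) set 0 were called without either Csl4 library and 1 without the deeper Rrp6 library. Among S3 RiboMinus libraries, the count against Csl4 dsRNA was 1 without the deeper Csl4 library and 0 without the shallower Csl4, the deeper GFP, the deeper Rrp40 or the deeper Rrp6 library. Against Rrp40 dsRNA it was 3 in the S2 poly(A) set without the deeper Rrp6 library, 3 in the S3 poly(A) set without the deeper Rrp40 library, and 0 in the S3 RiboMinus set without the deeper Rrp40 or the deeper Rrp6 library.

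Whether the response to Rrp6 dsRNA differed between the lines was tested as an interaction in poly(A) RNA. None of the 9 genes passed by edgeR (adjusted p 0.198 to 0.791, 1 at an unadjusted p below 0.05), where 0.835% of 8984 genes were lower and 1.8% higher. That one was aurB, whose fall was deeper in S3 than in S2 cells by 1.03 on the log2 scale (difference -1.03 ± 0.39, interval -1.86 to -0.20, adjusted p = 0.198). The differences of the others ran up to 0.70 for pbl (interval -0.27 to 1.67), and Incenp, at 0.51 (interval -0.16 to 1.19), fell less in S3 than in S2 cells by its estimate. Without the shallower S3 Rrp6 library 2 genes passed, pav (-1.53, adjusted p = 0.0147) and aurA (-1.52, adjusted p = 0.0447). For Csl4 and Rrp40 dsRNA 0 of 9 genes differed between lines, with 0 at an unadjusted p below 0.05, beside 0.0% of all genes called lower.

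Between RNA fractions of S3 cells, 0 of 9 genes differed in their response to Rrp6 dsRNA, with 0 at an unadjusted p below 0.05, and 0.0% of 8721 genes passed. The estimates for the 6 genes that fell in the S3 poly(A) set were all above 0, from 0.42 for aurB (interval -0.65 to 1.49) to 0.90 for pav (interval -0.18 to 1.98), so the falls were smaller in RiboMinus RNA by estimate and the intervals leave room for differences of more than 1 on the log2 scale. For Csl4 and Rrp40 dsRNA 0 of 9 differed as well, with 0 at an unadjusted p below 0.05. The background was 0.0% of genes called lower for Csl4 and 0.0344% for Rrp40 dsRNA.

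S2 RiboMinus RNA has 1 shallow library per group and allows no test; intervals are exact and cover counting error only. Pav had 8 reads with GFP and 2 with Rrp6 dsRNA, a ratio of 0.294 (95% interval 0.0305 to 1.48) after scaling to reads outside the targeted genes. Tum had 8 and 1 reads, a ratio of 0.147 (0.00332 to 1.1), and polo 13 and 4 reads, a ratio of 0.362 (0.0861 to 1.17). Each interval includes 1, so a difference was not detectable at this depth. Incenp had 9 and 3 reads, scra 22 and 13, feo 9 and 11 and pbl 4 and 3, and aurA (1 and 0) and aurB (1 and 2) were at or under 3 reads in both libraries. With Rrp40 dsRNA pav had 14, tum 16 and Incenp 16 reads, at ratios of 1.01, 1.16 and 1.03, in a library with more reads than that of GFP.

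The authors' deposited tables gave the same direction for Rrp6 dsRNA with fewer genes past an adjusted p of 0.05. In the authors' deposited table for S3 poly(A) RNA 4 of the 9 genes passed, tum (adjusted p = 0.0036), pav (0.00389), aurB (0.0318) and polo (0.0438), where 0.348% of genes were called lower. The means in that deposited table were 279 and 51.2 for pav, 285 and 48.8 for tum, 1080 and 230 for polo, and 145 and 28.3 for aurB, GFP first. The other 11 deposited tables by the authors had 0 of the 9 past 0.05, with 0.0% to 0.131% of genes called lower. In the authors' deposited tables for Rrp6 dsRNA the lowest adjusted p among the 9 was 0.138 in the S2 poly(A) set (tum), where 5 genes had an unadjusted p below 0.05, and 0.23 in the S3 RiboMinus set (tum), where 3 did. The knockdown mean was below the GFP mean for 8, 8 and 7 of the 9 genes in the 3 sets (S2 then S3 poly(A), then RiboMinus) in those deposited tables.

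Other genes of mitosis were counted in 6 lists of 55 genes, 52 of which were in the tables and 48 tested in each set. With Rrp6 dsRNA 20 were lower and 1 higher in the S2 poly(A) set, 20 lower and 3 higher in the S3 poly(A) set, and 12 lower and 1 higher in the S3 RiboMinus set; the median log2 change of the lists was -0.44, -0.52 and -0.51. The shares of all tested genes called lower were 16.9%, 16.4% and 7.35%. With Csl4 or Rrp40 dsRNA 0 of them were called in any set by edgeR. Without the block 0 list genes were called in the S2 poly(A) and S3 RiboMinus sets, so every list call below in those sets rests on it, and 12 were lower and 1 higher in the S3 poly(A) set.

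The partners of the passenger and polar kinases include several of the falls. Borr, the borealin subunit that sits with Incenp and aurB, was the 1 tested gene of the 3 passenger partners and fell in both poly(A) sets, with log2 changes of -3.03 ± 0.32 in S2 and -2.08 ± 0.63 in S3 cells, and was at -1.07 in the S3 RiboMinus set (adjusted p = 0.197). Bora, the activator of aurA, fell in all 3 sets (-1.68, -2.24 and -1.86), as did the spindle protein mei-38 (-1.07, -2.06 and -1.60). Of the 4 tested partners of aurA and polo, 2 fell in each set, and 1 other rose in the S3 poly(A) set. Of 5 tested mitotic kinases 2 fell in each poly(A) set and 0 in the S3 RiboMinus set: gwl (Greatwall), at -1.09, -2.29 and -1.40, and Mps1, at -0.92, -0.89 and -0.91. Nek2 had no call, at 0.48, 1.87 and 0.66.

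Of 11 checkpoint and anaphase genes 5, 6 and 3 fell in the 3 sets (S2 then S3 poly(A), then RiboMinus) and 0 rose. Called in all 3 sets were fzy, the Cdc20 activator of the anaphase-promoting complex (-1.48, -1.86 and -1.44), the checkpoint protein Bub3 (-1.09, -1.53 and -1.43) and the kinetochore protein rod (-0.79, -1.36 and -0.94); mad2 fell in both poly(A) sets (-1.46 and -1.99). Of 9 tested kinesins 6, 7 and 6 were lower. Ncd (-2.36, -2.67 and -1.90), Klp61F (-1.87, -2.26 and -1.72), sub, the other kinesin-6 of the fly beside pav (-2.23, -2.31 and -1.60), Klp67A (-2.01, -1.84 and -1.53) and cmet, the CENP-E kinesin (-2.03, -1.73 and -1.07), fell in all 3 sets.

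Among 18 tested genes of the contractile ring and abscission, where scra would belong, 4 fell and 1 rose in the S2 poly(A) set, 2 fell and 2 rose in the S3 poly(A) set and 1 fell and 1 rose in the S3 RiboMinus set. These counts are near the background of 16.9%, 16.4% and 7.35% of all genes called lower, and the list medians were -0.18, 0.34 and -0.05. Sti, the citron kinase that acts with centralspindlin at the ring, was the one called lower in all 3 (-1.88, -2.28 and -1.64). Cindr, an adaptor that binds anillin, rose in the S3 poly(A) set (1.86 ± 0.32) and was at 0.34 and 0.78 in the others, below the threshold.

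**Figure D4:**
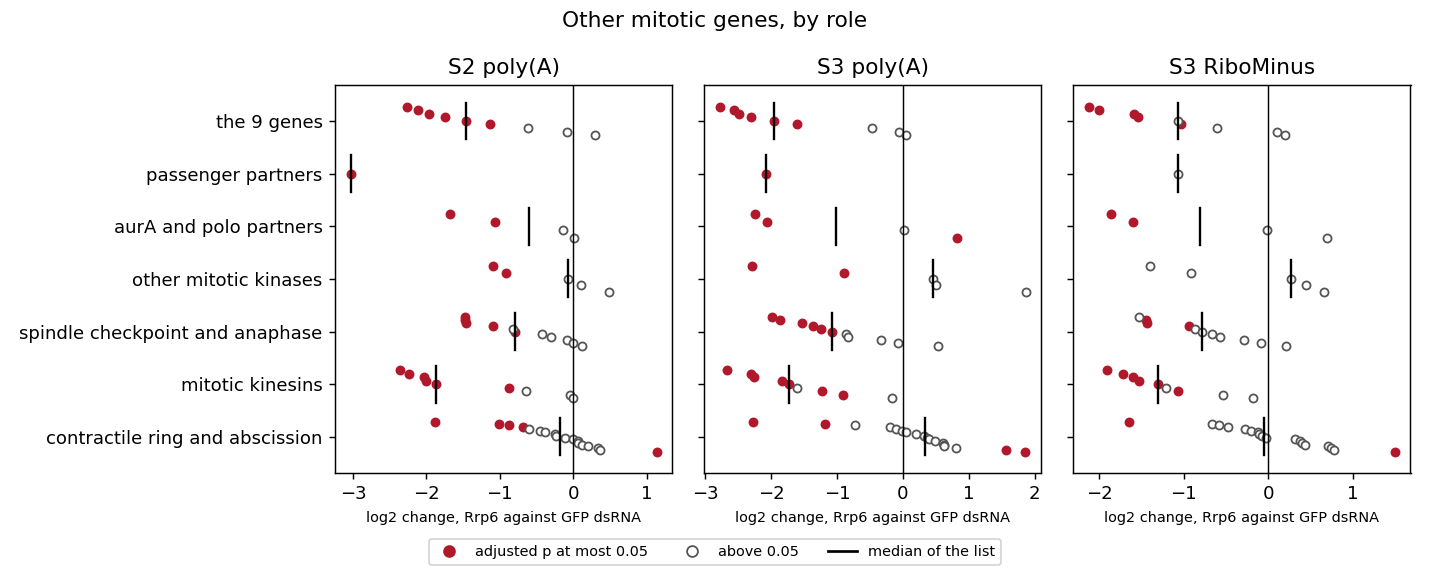
Log2 change with Rrp6 dsRNA for every tested gene of the 9 and of 6 lists of other mitotic genes, in each replicated set; filled points have an adjusted p of at most 0.05 and the bar is the list median. The kinesins have medians of -1.87, -1.73 and -1.30, and the contractile ring genes -0.18, 0.34 and -0.05.

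Across the 9 log2 changes (3 knockdowns in 3 sets) the 9 genes were compared with their own median profile. AurA was nearest to it, with a root mean square difference of 0.23, followed by polo (0.28), Incenp (0.29), pav (0.31), aurB (0.38) and tum (0.54), and scra (0.72), pbl (0.83) and feo (0.98) were farthest. The median includes the gene compared, so part of this nearness is built in. AurA is itself the median for Rrp6 dsRNA in the S3 poly(A) set (-1.96) and the S3 RiboMinus set (-1.07). Of 7153 other genes tested in all 3 sets, the 10 nearest to the median profile differed from it by 0.16 to 0.18. They include Claspin, a replication checkpoint adaptor (Rrp6 log2 changes of -1.51, -1.57 and -1.18), RfC3, a subunit of the replication clamp loader (-1.61, -2.17 and -1.26), the mitochondrial tyrosyl-tRNA synthetase TyrRS-m, the prolyl isomerase Cyp1, the fucosyltransferase O-fut1, the respiratory complex I subunit ND-MWFE and CG3430. The other 3 have IDs with no symbol in the table used here. The 9 changes share libraries within a set, so the likeness is a description.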

How the data were processed

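RNA-seq of 28 libraries from S2 and S3 cells was analysed; the ChIP-seq peak lists were not used here. The submitters' processing notes name TopHat 1.4.1 for RNA, with cutadapt 1.0, HTSeq 0.5.3p9 and CASAVA 1.8, and DESeq 1.9.11. The signal columns, as deposited, are group means of counts that the authors divided by DESeq size factors, with technical replicates grouped as 1 library where the file headers list them. The fold columns are the authors' ratio of knockdown to GFP mean, the log2 columns its log2, as deposited, and the p-value columns the authors' DESeq p-value and adjusted p-value. Per the file headers, dispersions were per condition, or blind for 1 library against 1.

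A deposited mean combines whole counts of its libraries, each over a size factor, and this was inverted to give the reads per library; all 15070 values of every column were solved within 0.0001 reads, and none of the 9 genes had a second solution. Other genes had one in at most 140 values of a column. Rows that name no gene held 80.3 to 91.9% of the mean total and stayed out. The files hold means, not counts, so this step came before the planned test. edgeR 4.0.16 (quasi-likelihood, TMM, default filter, Benjamini-Hochberg over all genes, R 4.3.3) was fitted per line and fraction with depth class as block. SE was taken as |log2 change| / sqrt(F). Deeper-shallower differences correlated between groups, at 0.67 to 0.7 (S2) and 0.37 to 0.73 (S3) for poly(A) RNA, and 0.27 to 0.38 for S3 RiboMinus; what low counts alone would give was not simulated. The lone S2 Rrp40 library (replicate 3, as the shallower GFP library) entered as shallower, and its error borrows the spread of other groups. The S3 RiboMinus fit had an infinite prior df. Each gene there took the quasi-dispersion fitted over all genes at its abundance, and its own spread did not enter. S2 RiboMinus reads were scaled to reads outside the targeted genes, which took up to 25.7% of a library. Fits and decoding were tested on simulated data. DESeq2 1.42.0, no block, RLE scaling, no filter, a knockdown's own libraries and each library left out are the alternatives.

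The members, the lists and the block were chosen with earlier results of these data known. The text names all 9 members, list genes called with Rrp6 dsRNA in all 3 sets, the 2 largest changes of each list and the 10 genes nearest to the members' median. Mps1 was added after its values were seen. Symbols matched 14085 of 15065 IDs.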

Additional observations from a re-analysis of the deposited data

How the results depend on the processing

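With Rrp6 dsRNA, DESeq2 called 9.14%, 14.1% and 2.58% of all tested genes lower than with GFP dsRNA (S2 then S3 poly(A), then RiboMinus). The shares of all genes with RLE scaling and without a filter are not given here. Against GFP dsRNA, the count of the 9 genes called lower with Rrp6 dsRNA stayed at 6 in each poly(A) set with DESeq2 and RLE scaling, and was 7 (S2) and 6 (S3) without a filter. Leaving out one library moved it between 5 and 7 in each poly(A) set. Without the replicate block it was 0 for S2 poly(A) and 0 for S3 RiboMinus RNA, and DESeq2 called 3 in S3 RiboMinus RNA. Leaving out one library moved it between 0 and 7 in S3 RiboMinus RNA. With Csl4 dsRNA in S2 poly(A) RNA 1 gene was called with RLE scaling and 1 without a filter, and 0 to 2 with a library left out.

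For Rrp6 against Csl4 dsRNA the counts without the block were 0, 0 and 0, and for Rrp6 against Rrp40 dsRNA 0, 2 and 0 (S2 poly(A), S3 poly(A), S3 RiboMinus). DESeq2 gave 0 against Csl4 and 2 against Rrp40 in S3 RiboMinus RNA, beside 0.195% and 2.21% of all tested genes called lower. With a library left out, the counts against Csl4 ran from 0 to 5, 0 to 6 and 0 to 2, those against Rrp40 from 3 to 5, 3 to 6 and 0 to 4, and the line interaction for Rrp6 from 0 to 2. At an adjusted p of 0.1 the authors' deposited tables gave 4 genes in S3 poly(A) RNA, as at 0.05.

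Only values that did not pass the test changed sign under another setting of all libraries. Without the block, with Rrp40 dsRNA, pbl turned to -0.54 and scra to -0.22 in S2 poly(A) RNA and pav to -0.02 in S3 RiboMinus RNA. With Csl4 dsRNA in S3 RiboMinus RNA aurA turned to 0.47 without the block, 0.35 with DESeq2 and 0.01 with RLE scaling, and DESeq2 gave Incenp 0.07 and tum 0.17. With Rrp6 dsRNA feo turned to 0.01 (DESeq2) and 0.03 (RLE) in S3 poly(A) RNA, and pbl to -0.04 without a filter, -0.08 in its own libraries and, in S3 RiboMinus RNA, -0.07 without a filter.

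With a library left out, these log2 changes spanned 0 (in brackets, the other values past 0 where several libraries turned the sign). For Rrp6 dsRNA they were Incenp -1.51 to 1.13 (0.20), feo -0.51 to 0.44 and pbl -0.22 to 0.48 (-0.01) in S3 RiboMinus RNA, feo -0.38 to 0.12 (0.04) and pbl -0.61 to 0.60 (-0.31, -0.17 and -0.02) in S3 poly(A) RNA and scra -0.30 to 0.17 in S2 poly(A) RNA. For Csl4 dsRNA they were Incenp -0.69 to 1.91 (0.50), tum -0.99 to 1.69 (1.20), aurA -0.48 to 1.52 (0.11 to 0.76), pav -0.75 to 0.20 and polo -0.68 to 0.08 in S3 RiboMinus RNA, and feo -0.28 to 0.10 (0.04) and scra -0.40 to 0.19 (0.09) in S2 poly(A) RNA. For Rrp40 dsRNA they were Incenp -0.68 to 1.89, tum -0.79 to 1.39, aurA -2.13 to 0.44 (0.04), pav -0.32 to 0.12 (-0.02) and polo -0.99 to 0.05 in S3 RiboMinus RNA, aurA -0.14 to 0.04 and aurB -0.14 to 0.16 (-0.08) in S3 poly(A) RNA, and pbl -0.07 to 0.13 (-0.05 and -0.02), scra -0.09 to 0.34, feo -0.36 to 0.05 and polo -0.78 to 0.17 in S2 poly(A) RNA.

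Shallower S3 RiboMinus libraries held 0 to 59 reads of a gene, so values there rest on the deeper pair. Where a left-out library leaves 1 in a group, that library is assumed to vary like the others. AurB was tested in only 4 of the 8 fits of S3 RiboMinus RNA with a library left out, so counts from the other fits leave it out. The cause of these changes was not tested.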
